A study of Homo sapiens with 12 samples.

Results

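The proteasome genes of MNNG/HOS cells, a human osteosarcoma line derived from HOS by chemical transformation, were followed after exposure to NXP800. Members were chosen by symbol, by a rule that uses no measured value but was set with earlier results of these data known. It takes PSMA to PSMG genes with a number, plus the assembly factors POMP and PAAF1 and the transcription factor NFE2L1. Pseudogenes and antisense transcripts were left out. The rule gives 51 of the 43236 symbols in the files. They comprise 14 subunits of the constitutive 20S core (7 alpha and 7 beta), 3 immunoproteasome subunits, 2 tissue-restricted core subunits, 17 subunits of the 19S particle (6 ATPases and 11 others), 5 assembly factors of the 20S core and 4 of the 19S particle, 5 activators and inhibitors, and NFE2L1. The cells were the unmodified line in all 4 groups, given either DMSO, the solvent, or NXP800 at 300 nM. RNA was taken after 6 h or 24 h, and each group holds 3 libraries of polyadenylated RNA. The study examined NXP800 as an activator of the kinase GCN2 and of the unfolded protein response, and the question here is how far the transcripts of the proteasome moved with it at each time.

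The proteasome degrades proteins tagged with ubiquitin. Its 20S core is a barrel of stacked rings, in which alpha subunits form the gate and beta subunits hold the active sites, and the 19S particle binds the ubiquitin chain, removes it and unfolds the substrate with a ring of ATPases. Interferon gamma replaces the catalytic subunits by immunoproteasome counterparts that favour peptides for MHC class I. When the proteasome is inhibited, NFE2L1 (also called TCF11 or NRF1), a membrane protein of the endoplasmic reticulum, is extracted, deglycosylated by NGLY1, cleaved by DDI2, and as a dimer with small MAF proteins activates proteasome genes through antioxidant response elements.

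Promoters were searched for the letters of such elements, because NFE2L1 and interferon are the best known routes to these genes. RefSeq promoter sequences of GRCh38.p14, from 250 bases before to 50 after the start, were matched for 45 of the 51 members. On either strand, TGACNNNGC, the core of the antioxidant response element, was found in 13 of the 45 (28.9%) and in 13.6% of all 27305 promoters of the same length. The interferon-stimulated response element, searched as a pair of GAAA blocks with any 2 bases between them, was found in 6 of the 45 (13.3%) and in 3.65% of all. Matches of different motifs were counted independently and may overlap. The windows below are written 5′ to 3′ on the strand of the gene, with the match in capitals. They are shown for a core subunit and a 19S subunit that fell at both times, for a 19S subunit that was called at neither and for the activator that rose at 6 h. PSMB3 lies on the plus strand (chr17:38752612-38752670, match beginning 104 bases before the start), as does PSMD3 (chr17:39980745-39980803, 37 bases before). PSMD12 lies on the minus strand (chr17:67366709-67366767, 165 bases before), as does PSME4 (chr2:53970994-53971052, 34 bases before, where the match is to the reverse complement).
PSMB3: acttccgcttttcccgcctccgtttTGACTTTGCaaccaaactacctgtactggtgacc
PSMD3: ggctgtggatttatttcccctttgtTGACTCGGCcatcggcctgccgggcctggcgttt
PSMD12: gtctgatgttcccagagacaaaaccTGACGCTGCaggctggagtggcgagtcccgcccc
PSME4: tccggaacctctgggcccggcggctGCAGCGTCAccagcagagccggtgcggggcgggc

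The interferon motif is shown for the immunoproteasome subunit PSMB10 (chr16:67936851-67936896, minus strand, 21 bases before the start), the activator PSME2 (chr14:24146611-24146663, minus strand, 28 bases before) and the core subunit PSMB4 (chr1:151399480-151399539, plus strand, 68 bases before), which all fell at both times.
PSMB10: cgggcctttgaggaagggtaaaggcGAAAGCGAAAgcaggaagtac
PSME2: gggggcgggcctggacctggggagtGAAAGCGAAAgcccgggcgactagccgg
PSMB4: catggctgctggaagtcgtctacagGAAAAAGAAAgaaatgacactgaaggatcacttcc
PSMB10 and PSME2 hold the same letters in this match, as does PSMG4 (33 bases before the start), which was called at neither time. PSME1, which fell at both times, holds their reverse complement. The heat shock element, searched as GAA, TTC and GAA with any 2 bases between them, was in none of the 45 promoters and in 0.487% of all, and TGACGTCA, the cAMP response element, in none and 1.98%. The core of ETS sites, CCGGAAG, was in 15 of the 45 (33.3%) and in 10.7% of all, and the CCAAT box in 21 (46.7%) and 35.7%. The gamma-activated site, TTCNNNGAA, was in 6 (13.3%) and 7.88%, and the C/EBP-ATF response element, TGATGNAA, in 1 (2.22%) and 3.67%. The palindrome of nuclear respiratory factor, a factor distinct from NFE2L1, was in 1 (2.22%) and 1.36%. A match describes letters only, and binding was not measured.

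Gene counts per library lay between 30810614 and 31947656. The libraries of the times differed in how many read pairs fell outside annotated genes, 6.66 to 8.14% at 6 h and 2.73 to 3.67% at 24 h, so each NXP800 group was compared with the DMSO group of its own time. Of the osteoblast and mesenchymal markers RUNX2, COL1A1, SPARC and VIM were expressed, while COL1A2, ALPL, BGLAP and SP7 were below 1 CPM (counts scaled to a common library size by TMM) in every library. Among 10 markers of other cell types 7 were below 1 CPM in every library, and the exceptions were KRT18, EPCAM and CD14. Reads of 22 members could also come from RefSeq pseudogenes named after them, and 10 members share over 10% of their exon length with another gene. The counter's strand setting is not given in the sources used here, so reads of members such as PSMB10 (39.4% shared), PSMC1 (76.1%, with NRDE2), PSMD7 (31.2%), PSMA2 (29.7%), PSMA1 (26.7%) and PSMB8 (17.3%, with PSMB8-AS1 and PSMB9) may be split or mixed with those of their neighbours. Other genes named below share exons too, such as NFE2L2 (38.4%), NFE2L3 (28.1%) and IRF1 (22.9%). These overlaps are GENCODE's, whereas the study names a RefSeq annotation, so some neighbours may not have been counted.

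More proteasome transcripts fell than rose with NXP800, and the changes were small. At 6 h 4 members rose and 19 fell among the 49 that passed the filter on low counts, and at 24 h 4 rose and 24 fell. A gene is called at an adjusted p below 0.05 in edgeR's quasi-likelihood test. Over all 15979 tested genes 25% rose and 27.8% fell at 6 h (52.8% in all), and 27.5% rose and 28.6% fell at 24 h (56% in all). Among the tested members 8.16% rose at each time, while 38.8% fell at 6 h and 49.0% at 24 h. These shares describe the members, and no test was made over them. The members' log2 fold changes had medians of -0.10 and -0.16 at these times, and all tested genes had medians of -0.05 and -0.003. With all libraries no member changed by more than 2-fold, and PSMB9 did so when single libraries were left out. At both times 17 members fell and PSMD14 and NFE2L1 rose, and 17 were called at neither. The matching shares of all tested genes were not counted, so whether these counts are unusual cannot be told. PSMA8, the testis alpha subunit, had 0 counts in every library, which allows up to 3 counts per library, and PSMB11, the thymus beta subunit, had at most 1 per group, so they were not tested.

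**Figure D1:**
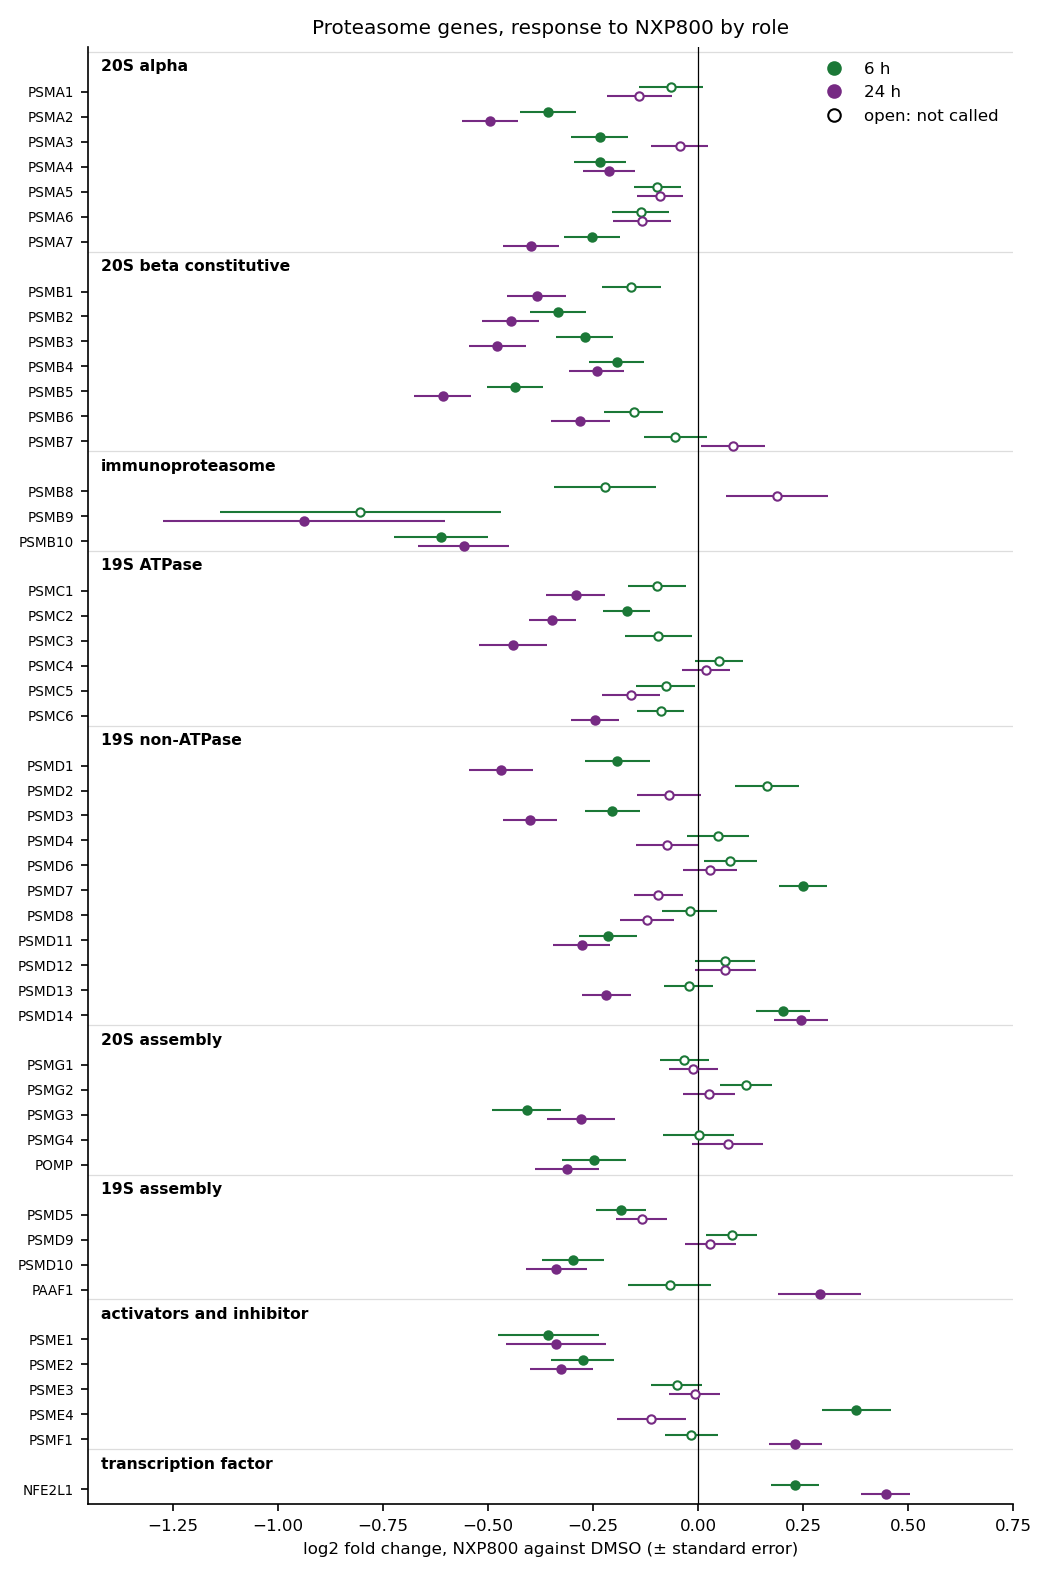
Each row is a proteasome gene, grouped by role, and the x axis gives the log2 fold change of NXP800 against DMSO with its standard error at 6 h (green) and 24 h (purple, n = 3 libraries per group). Filled points are called at an adjusted p below 0.05; the 20S core subunits lie left of 0 apart from PSMB7 at 24 h (with library size only also PSMA3), and NFE2L1 and PSMD14 lie right of 0 at both times.

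Among the 14 subunits of the 20S core 8 fell at 6 h (57.1%) and 9 at 24 h (64.3%), and none rose, while the 19S particle had calls in both directions. All 14 core subunits had a log2 fold change below 0 at 6 h and 13 of 14 at 24 h, where with library size only PSMA3 also turned to 0.05, and the medians were -0.21 and -0.26. Of the 17 subunits of the 19S particle 2 rose and 4 fell at 6 h (11.8 and 23.5%, median -0.02). At 24 h 1 rose and 8 fell (5.88 and 47.1%, median -0.16). Of the 3 immunoproteasome subunits 1 fell at 6 h (33.3%) and 2 fell at 24 h (66.7%). Over all tested genes 25% rose and 27.8% fell at 6 h, and 27.5% rose and 28.6% fell at 24 h. For these 17 both shares at 6 h were below those of all tested genes, with falls at 23.5 against 27.8%. The symbol rule leaves out ADRM1 and SEM1, also of the 19S particle, which fell at both times and are given below. The 19S shares and sums here do not cover them. The 19S counts at 6 h depended on single libraries: 1 or 2 subunits fell without DMSO replicate 1, 2 or 3 or NXP800 replicate 2 or 3 of 6 h, and 1 rose without DMSO replicate 3 or NXP800 replicate 1 of 6 h. The immunoproteasome count was 2 at 6 h without DMSO replicate 3 or NXP800 replicate 2 of 6 h or DMSO replicate 3 of 24 h, and 1 at 24 h without DMSO replicate 3 or NXP800 replicate 2 or 3 of 24 h.

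In summed CPM the core took 3621, 3657 and 3503 in the DMSO libraries of 6 h and 3194, 3019 and 3093 in those with NXP800, which is 86.3% of DMSO. The 24 h libraries took 3815, 3678 and 3671 against 3284, 2835 and 3029, or 81.9%. The NXP800 libraries were below all DMSO libraries at both times, and replicate 2 was the lowest of its group at each time. For the 19S particle the 6 h libraries overlapped, with 4569, 4508 and 4521 in DMSO and 4602, 4430 and 4627 with NXP800 (100% of DMSO). At 24 h the DMSO libraries had 4628, 4290 and 4533 and the NXP800 libraries 4371, 3778 and 3899, or 89.6%. These groups overlapped, but each NXP800 library was below the DMSO library of its own number in all 3 pairs. The 6 h sum of the 19S particle joins parts whose sums went opposite ways. Its ATPases were at 94.5% of DMSO, lower in all 3 pairs, and its other subunits at 103%, higher in all 3. Mean sums of these other subunits were 3079 in DMSO and 3179 with NXP800. PSMD2 alone, which was not called, had means of 790 and 886 CPM. Of the 11 other subunits 2 rose and 3 fell at 6 h, so the higher sum is not a rise of the class. In bulk RNA a lower level per cell and a smaller share of expressing cells cannot be told apart.

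Alpha subunits of the core form its outer rings. PSMA2 fell most among them at both times. It was at 230, 240 and 217 CPM in DMSO and 185, 182 and 169 with NXP800 at 6 h (log2 fold change -0.36 ± 0.07 SE, adjusted p = 0.000276). At 24 h it was at 219, 215 and 218 against 166, 142 and 155 (-0.50 ± 0.07, adjusted p = 9.92e-06). The groups did not overlap at either time. PSMA7 and PSMA4 fell at both times as well, PSMA7 by 0.25 and 0.40 on the log2 scale and PSMA4 by 0.23 and 0.21. PSMA3 fell at 6 h (-0.23, adjusted p = 0.00809) and was at -0.04 at 24 h (adjusted p = 0.609), a difference between the times that did not pass (adjusted p = 0.159) except with library size only (adjusted p = 0.0248). PSMA1, PSMA5 and PSMA6 lay between -0.14 and -0.06 and passed at neither time. Without NXP800 replicate 1 of 24 h, PSMA1 and PSMA6 were called lower at 24 h, at -0.24 (adjusted p = 0.00906) and -0.20 (adjusted p = 0.0186). The call of PSMA4 at 24 h was lost without DMSO replicate 3 of 24 h (adjusted p = 0.0506).

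The beta subunits include the catalytic sites of the constitutive core. PSMB5, which carries the chymotrypsin-like site, showed the largest fall of any core subunit. Its level was 267, 267 and 270 CPM in DMSO and 204, 187 and 204 with NXP800 at 6 h (-0.44 ± 0.07, adjusted p = 5.11e-05). Its 24 h level was 289, 275 and 281 against 201, 167 and 187 (-0.61 ± 0.07, adjusted p = 1.35e-06), or 0.656 of the DMSO level. Every NXP800 library was below every DMSO library.

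PSMB6 carries the caspase-like site. It was at 287, 300 and 309 CPM in DMSO and 277, 251 and 277 with NXP800 at 6 h (-0.15 ± 0.07, adjusted p = 0.0783), which passed with the replicate number as a block (adjusted p = 0.0492). At 24 h it fell, from 323, 298 and 299 to 275, 233 and 250 (-0.28 ± 0.07, adjusted p = 0.00284). The groups were apart at both times. PSMB7, which carries the trypsin-like site, was at 223, 218 and 207 CPM against 217, 198 and 209 at 6 h (-0.05, adjusted p = 0.57). After 24 h its level was 197, 178 and 187 against 224, 183 and 188 (0.08, adjusted p = 0.366), with overlapping groups. With scaling by library size only, PSMB7 was called higher at 24 h (0.17, adjusted p = 0.0332). The catalytic subunits thus lay between -0.61 and 0.08 at 24 h.

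The non-catalytic beta subunits PSMB2, PSMB3 and PSMB4 fell at both times. PSMB2 fell by 0.33 and 0.45 on the log2 scale, PSMB3 by 0.27 and 0.48 and PSMB4 by 0.19 and 0.24. PSMB1 was at -0.16 at 6 h (adjusted p = 0.0695, 0.0308 with the replicate block, 0.0489 with the 6 h libraries alone and 0.0273 without NXP800 replicate 1 of 24 h) and fell by 0.38 at 24 h (adjusted p = 0.000216). The call of PSMB4 at 6 h was lost without any one of DMSO replicates 1 and 2 and NXP800 replicates 2 and 3 (adjusted p = 0.0573 to 0.0735).

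**Figure D2:**
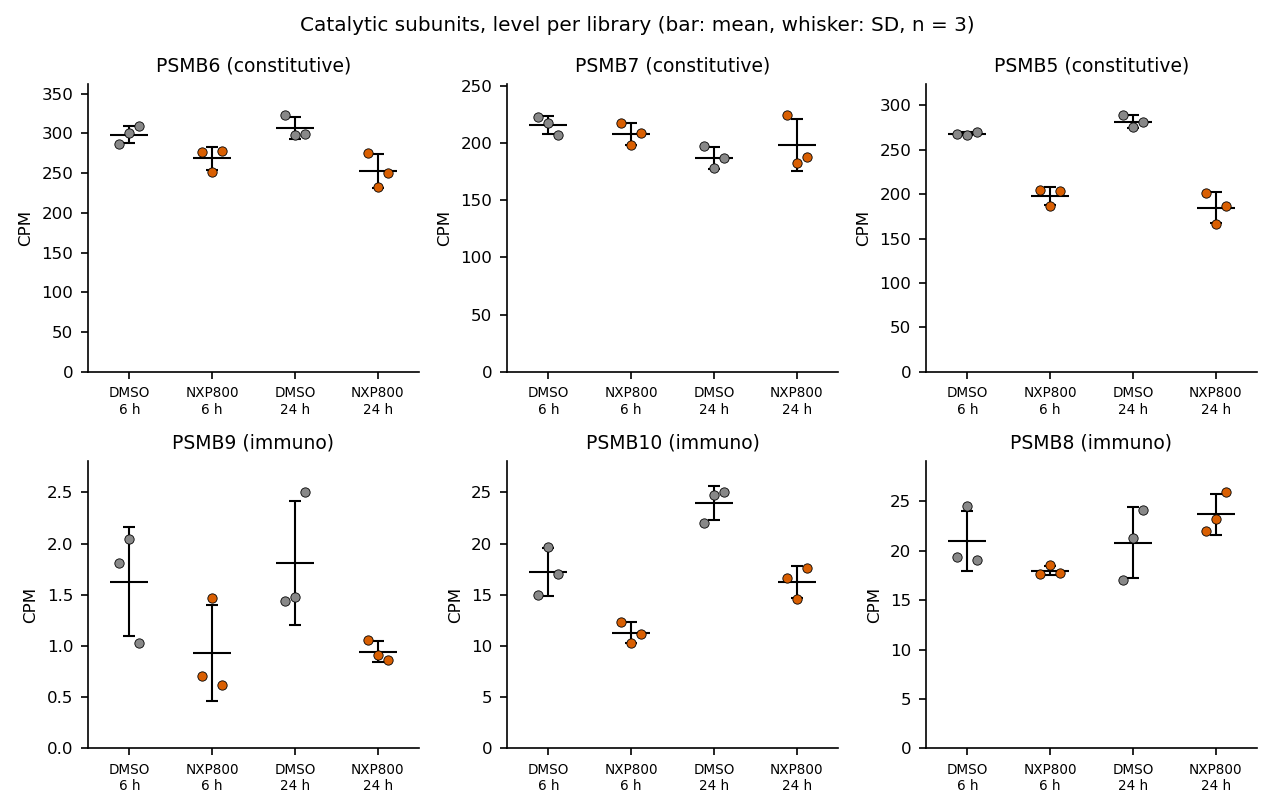
The y axis of each panel gives the CPM of a catalytic subunit in each of 12 libraries, with mean and SD of 3 libraries per group; the upper row shows constitutive subunits and the lower row their immunoproteasome counterparts. PSMB5 falls to 167 to 204 CPM with NXP800 from 267 to 289 in DMSO, PSMB7 overlaps between groups, and PSMB9 stays below 2.6 CPM in all libraries.

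The immunoproteasome subunits were low in these cells. PSMB10 fell at both times, PSMB9 at 24 h and PSMB8 at neither. PSMB10 (chr16:67934506-67936850, GRCh38.p14), is the counterpart of PSMB7. It was at 15.0, 19.7 and 17.0 CPM against 12.3, 10.3 and 11.2 at 6 h (-0.61 ± 0.11, adjusted p = 0.000242) and at 22.1, 24.7 and 25.1 against 16.6, 14.6 and 17.6 at 24 h (-0.56 ± 0.11, adjusted p = 0.000373). The groups did not overlap. PSMB8 (chr6:32840717-32844679), the counterpart of PSMB5, was at 19.4, 24.5 and 19.1 CPM against 17.7, 18.5 and 17.8 at 6 h (-0.22, adjusted p = 0.138). At 24 h it was at 17.0, 21.3 and 24.2 against 22.0, 23.2 and 26.0 (0.19, adjusted p = 0.196), and it passed at neither time. Without DMSO replicate 3 of 24 h it was called higher at 24 h, by 0.31 (adjusted p = 0.0499).

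PSMB9 (chr6:32854192-32859851), the counterpart of PSMB6, was barely expressed, with 20 to 73 counts per library. At 6 h it had 57, 65 and 34 counts in DMSO and 23, 48 and 20 with NXP800 (-0.80 ± 0.33, adjusted p = 0.0533), and the groups overlapped. At 24 h it fell, with 43, 44 and 73 counts against 32, 29 and 27 (-0.94 ± 0.34, adjusted p = 0.0252). The 6 h value passed without a filter on low counts (adjusted p = 0.00578) and with at least 10 counts in every library (adjusted p = 0.0481). It passed as well without DMSO replicate 3 of 6 h (-1.05, adjusted p = 0.0151), NXP800 replicate 2 of 6 h (-1.29, adjusted p = 0.00626) or DMSO replicate 3 of 24 h (adjusted p = 0.0421). The 24 h call was lost without DMSO replicate 3 (-0.63, adjusted p = 0.152), NXP800 replicate 2 (adjusted p = 0.0695) or NXP800 replicate 3 (adjusted p = 0.0666). TAP1 and TAP2, the peptide transporter genes beside PSMB9 and PSMB8 in the MHC region, are given beside them. TAP1 fell at 6 h, from 13.1, 12.3 and 12.2 CPM to 8.11, 9.00 and 8.38 (-0.56, adjusted p = 0.00831), and was at 0.22 at 24 h (adjusted p = 0.225). Without DMSO replicate 3 of 24 h it was called higher at 24 h, by 0.46 (adjusted p = 0.0103). TAP2 fell at both times by 0.15 and 0.22, and its 6 h call was lost without any one of DMSO replicates 1 to 3 or NXP800 replicates 1 and 2 of 6 h, or NXP800 replicate 2 of 24 h (adjusted p = 0.0614 to 0.156). The 6 h call was also lost with DESeq2's Wald test or size factors, with library size only, without a filter and with the 6 h libraries alone (adjusted p = 0.0534 to 0.155), and the 24 h call with library size only (adjusted p = 0.052).

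Per kilobase of the MANE transcript, an immunoproteasome subunit can be set beside its counterpart within a library. PSMB8 amounted to 7.28% ± 1.10 (SD, n = 3) of PSMB5 in DMSO and 8.46% ± 0.674 with NXP800 at 6 h (exact permutation p = 0.3). The 24 h ratio was 5.47, 7.17 and 7.99% in DMSO and 10.2, 12.9 and 12.9% with NXP800 (p = 0.1 by the exact test). PSMB10 amounted to 6.78, 9.12 and 8.28% of PSMB7 in DMSO and 5.72, 5.25 and 5.41% with NXP800 at 6 h, and to 12.9% ± 1.46 against 8.31% ± 1.02 at 24 h with no overlap (exact permutation p = 0.1 at each time). PSMB9 was below 0.7% of PSMB6 in every library, at 0.445% ± 0.152 against 0.286% ± 0.162 at 6 h and 0.481% ± 0.173 against 0.302% ± 0.0199 at 24 h (exact permutation p = 0.2 and 0.1, n = 3 per group). The ratio of PSMB8 to PSMB5 was thus higher with NXP800 at 24 h and that of PSMB10 to PSMB7 lower at both times in every library, but 3 libraries against 3 cannot give a two-sided p below 0.1. Over the 6 tests the Benjamini-Hochberg adjusted p was 0.15 to 0.3. PSMB5 itself fell, with a log2 fold change of -0.61 at 24 h, where PSMB8 was at 0.19 and not called. At 6 h PSMB5 was at -0.44 and PSMB8 at -0.22, again not called. A higher ratio here is therefore not a called rise of PSMB8. Set within pairs of libraries of 1 number, PSMB8 to PSMB5 was higher with NXP800 in all 3 pairs at both times, and PSMB10 to PSMB7 and PSMB9 to PSMB6 were lower in all 3. An exact sign-flip permutation test over 3 pairs cannot go below a two-sided p of 0.25, which each of the 6 ratios gave.

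**Figure D3:**
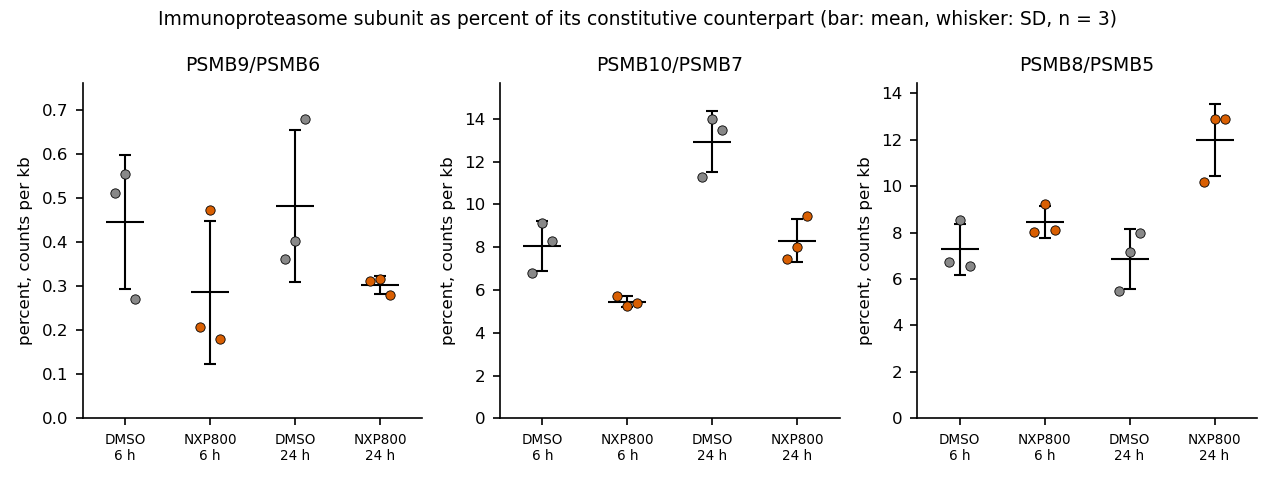
The y axis gives the counts per kilobase of an immunoproteasome subunit as a percent of its constitutive counterpart in each of 12 libraries, with mean and SD of 3 libraries per group. PSMB8 relative to PSMB5 is at 10.2 to 12.9% with NXP800 at 24 h and at 5.47 to 7.99% in DMSO, while PSMB10 relative to PSMB7 is lower with NXP800 at both times. At 24 h PSMB5 fell and PSMB8 was not called.

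The ATPases of the 19S base form the unfolding ring. PSMC2 fell at both times, from 114, 118 and 108 CPM to 101, 102 and 100 at 6 h (-0.17 ± 0.06, adjusted p = 0.017) and from 102, 106 and 110 to 84.6, 80.9 and 83.9 at 24 h (-0.35 ± 0.06, adjusted p = 6.32e-05). PSMC3 was at 333, 314 and 319 CPM against 301, 287 and 316 at 6 h (-0.09, adjusted p = 0.338) and fell at 24 h, from 281, 248 and 266 to 220, 172 and 194 (-0.44 ± 0.08, adjusted p = 0.000211). Its groups overlapped at 6 h and were apart at 24 h, and the responses differed by 0.35 on the log2 scale (adjusted p = 0.0341). PSMC1 and PSMC6 fell at 24 h by 0.29 and 0.25 and did not pass at 6 h. PSMC5 was at -0.16 at 24 h (adjusted p = 0.0621, 0.0424 with the replicate block, 0.0393 without DMSO replicate 2 of 24 h and 0.00825 without NXP800 replicate 1 of 24 h), and PSMC4 lay at 0.05 and 0.02. The 6 h call of PSMC2 was lost without DMSO replicate 1 or 2 or NXP800 replicate 3 (adjusted p = 0.0502 to 0.0817) and without a filter on low counts (adjusted p = 0.0876). The difference for PSMC3 was lost without DMSO replicates 2 or 3 or NXP800 replicates 1 or 3 of 6 h, DMSO replicates 1 or 3 of 24 h, or NXP800 replicates 2 or 3 of 24 h, each left out singly (adjusted p = 0.0582 to 0.08).

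The other 19S subunits went both ways. PSMD14, the deubiquitinase that cuts the chain from the substrate, rose at both times. It was at 196, 194 and 180 CPM against 230, 206 and 218 at 6 h (0.20 ± 0.06, adjusted p = 0.0145) and at 153, 146 and 154 against 192, 170 and 175 at 24 h (0.24 ± 0.06, adjusted p = 0.00425), with no overlap. PSMD7, its partner in the lid, rose at 6 h, from 208, 198 and 193 to 250, 233 and 229 (0.25 ± 0.06, adjusted p = 0.00167). At 24 h PSMD7 was at 184, 181 and 184 against 177, 173 and 165 (-0.09, adjusted p = 0.177), and its responses differed by 0.34 (adjusted p = 0.00558). PSMD2, a scaffold subunit that binds ubiquitin shuttle proteins, was at 769, 773 and 829 CPM against 853, 863 and 941 at 6 h. Its groups did not overlap, but it did not pass (0.16, adjusted p = 0.0782), and it was at -0.07 at 24 h. The 6 h value passed with library size only, with the 6 h libraries alone, with DESeq2's Wald test and without NXP800 replicate 1 or 2 of 24 h (adjusted p = 0.0162 to 0.0435).

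PSMD1, the large scaffold of the base, fell at both times. It was at 369, 351 and 348 CPM against 320, 304 and 310 at 6 h (-0.19 ± 0.08, adjusted p = 0.0457) and at 378, 329 and 382 against 294, 241 and 251 at 24 h (-0.47 ± 0.08, adjusted p = 7.89e-05). The difference between its responses did not pass (-0.28, adjusted p = 0.0742). It passed with the replicate block (adjusted p = 0.031) and without DMSO replicate 2 (-0.34, adjusted p = 0.0327) or NXP800 replicate 1 (-0.37, adjusted p = 0.0123) of 24 h. The lid subunits PSMD11 and PSMD3 fell at both times as well, PSMD11 from 126, 122 and 122 CPM to 109, 105 and 105 at 6 h (-0.21 ± 0.07, adjusted p = 0.0155) and by 0.28 at 24 h. PSMD3 fell by 0.20 and 0.40, and PSMD13 at 24 h by 0.22. PSMD4, the ubiquitin receptor, and PSMD6, PSMD8 and PSMD12 passed at neither time and lay between -0.12 and 0.08. Without NXP800 replicate 1 of 24 h, PSMD8 was called lower at 24 h (-0.18, adjusted p = 0.0242).

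Several of these 6 h calls depended on single libraries. That of PSMD1 was lost without any one of the 6 libraries of 6 h or without NXP800 replicate 2 of 24 h (adjusted p = 0.0633 to 0.139), and with DESeq2's Wald test or size factors (adjusted p = 0.0828 and 0.0753). That of PSMD14 was lost without DMSO replicate 3 or NXP800 replicate 1 (adjusted p = 0.0692 and 0.0781), that of PSMD3 without DMSO replicate 3 or NXP800 replicate 2 (adjusted p = 0.0579 and 0.0615), and that of PSMD11 without DMSO replicate 1 or NXP800 replicate 2 (adjusted p = 0.0548 and 0.055).

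Of the 9 assembly factors 4 fell at 6 h (44.4%, against 27.8% of all tested genes), while 3 fell and 1 rose at 24 h (33.3 and 11.1%, against 28.6 and 27.5%). PSMG3, a chaperone of the alpha ring, was at 30.6, 35.3 and 36.2 CPM against 24.8, 25.4 and 26.8 at 6 h (-0.41 ± 0.08, adjusted p = 0.000567), and it fell by 0.28 at 24 h (adjusted p = 0.00802). POMP, which joins the half-barrels of the core, was at 170, 170 and 164 CPM against 145, 138 and 142 at 6 h (-0.25 ± 0.08, adjusted p = 0.0122). At 24 h POMP was at 176, 152 and 175 against 152, 123 and 131 (-0.31 ± 0.08, adjusted p = 0.0025). PSMD10 (gankyrin), a chaperone of the 19S base, was at 86.3, 89.2 and 77.4 CPM against 66.9, 73.5 and 65.3 at 6 h (-0.30 ± 0.07, adjusted p = 0.00271) and at 83.8, 79.0 and 87.1 against 70.2, 61.4 and 66.3 at 24 h (-0.34 ± 0.07, adjusted p = 0.000946). The exception was PAAF1, which binds ATPases of the base. It was at -0.07 at 6 h (adjusted p = 0.592) and rose at 24 h, from 14.2, 12.9 and 14.5 to 15.4, 16.1 and 19.3 CPM (0.29 ± 0.10, adjusted p = 0.0205). PSMD5 fell at 6 h by 0.18 and was at -0.13 at 24 h (adjusted p = 0.0682, 0.0471 with the replicate block and 0.0393 without NXP800 replicate 1 of 24 h). PSMG1, PSMG2, PSMG4 and PSMD9 passed at neither time, except that PSMG2 was called higher at 6 h with the 6 h libraries alone (0.15, adjusted p = 0.0376).

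The 24 h call of PAAF1 was lost without DMSO replicate 2 or NXP800 replicate 3 (adjusted p = 0.0855 and 0.119), and that of PSMG3 without DMSO replicate 2 (adjusted p = 0.0572). The 6 h call of PSMD5 was lost without DMSO replicate 1 or NXP800 replicate 3 (adjusted p = 0.0877 and 0.0569) and without a filter on low counts (adjusted p = 0.0833).

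PSME1 and PSME2, the subunits of the interferon-inducible activator PA28, fell at both times. PSME2 was at 96.3, 110 and 93.8 CPM against 80.3, 87.2 and 80.6 at 6 h (-0.27 ± 0.07, adjusted p = 0.00567) and fell by 0.32 at 24 h (adjusted p = 0.00161). PSME1 was at 92.3, 106 and 72.6 against 69.6, 80.7 and 61.5 at 6 h (-0.36 ± 0.12, adjusted p = 0.0193) and at 88.1, 101 and 99.8 against 74.7, 70.4 and 83.6 at 24 h (-0.34 ± 0.12, adjusted p = 0.024). The 6 h groups of PSME1 overlapped. Its calls were lost without DMSO replicate 1 or 2 or NXP800 replicate 1 or 3 at 6 h (adjusted p = 0.052 to 0.135), and without DMSO replicate 2 or 3 or NXP800 replicate 1 or 2 at 24 h (adjusted p = 0.0623 to 0.117). PSME3, the nuclear activator PA28 gamma, passed at neither time.

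PSME4, which encodes the activator PA200, rose at 6 h. It was at 128, 113 and 121 CPM against 152, 155 and 163 at 6 h (0.38 ± 0.08, adjusted p = 0.00106) and at 131, 125 and 117 against 126, 121 and 98.9 at 24 h (-0.11, adjusted p = 0.263). The 6 h groups were apart, the 24 h groups overlapped, and the responses differed by 0.49 (adjusted p = 0.00571). PSMF1 encodes the inhibitor PI31. It was at 166, 163 and 158 CPM against 166, 157 and 159 at 6 h (-0.02, adjusted p = 0.846) and rose at 24 h, from 213, 193 and 200 to 253, 222 and 237 (0.23 ± 0.06, adjusted p = 0.00467). The difference for PSMF1 was 0.25 (adjusted p = 0.0491). It was lost with DESeq2's Wald test or size factors or without a filter on low counts (adjusted p = 0.0532 to 0.0805), and without any one library except DMSO replicate 1 or NXP800 replicate 2 of 24 h (adjusted p = 0.0597 to 0.12).

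NFE2L1 (chr17:48048359-48061545), the transcription factor of the group, rose at both times. It was at 200, 188 and 205 CPM against 224, 233 and 240 at 6 h (0.23 ± 0.06, adjusted p = 0.00328) and at 235, 236 and 253 against 332, 329 and 325 at 24 h (0.45 ± 0.06, adjusted p = 7.13e-06). All NXP800 libraries were above all DMSO libraries. The rise at 24 h exceeded that at 6 h by 0.22, which did not pass (adjusted p = 0.065) except with the replicate block (adjusted p = 0.0486), with library size only, with at least 10 counts in every library and with DESeq2 (adjusted p = 0.015 to 0.0473 for these).

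**Figure D4:**
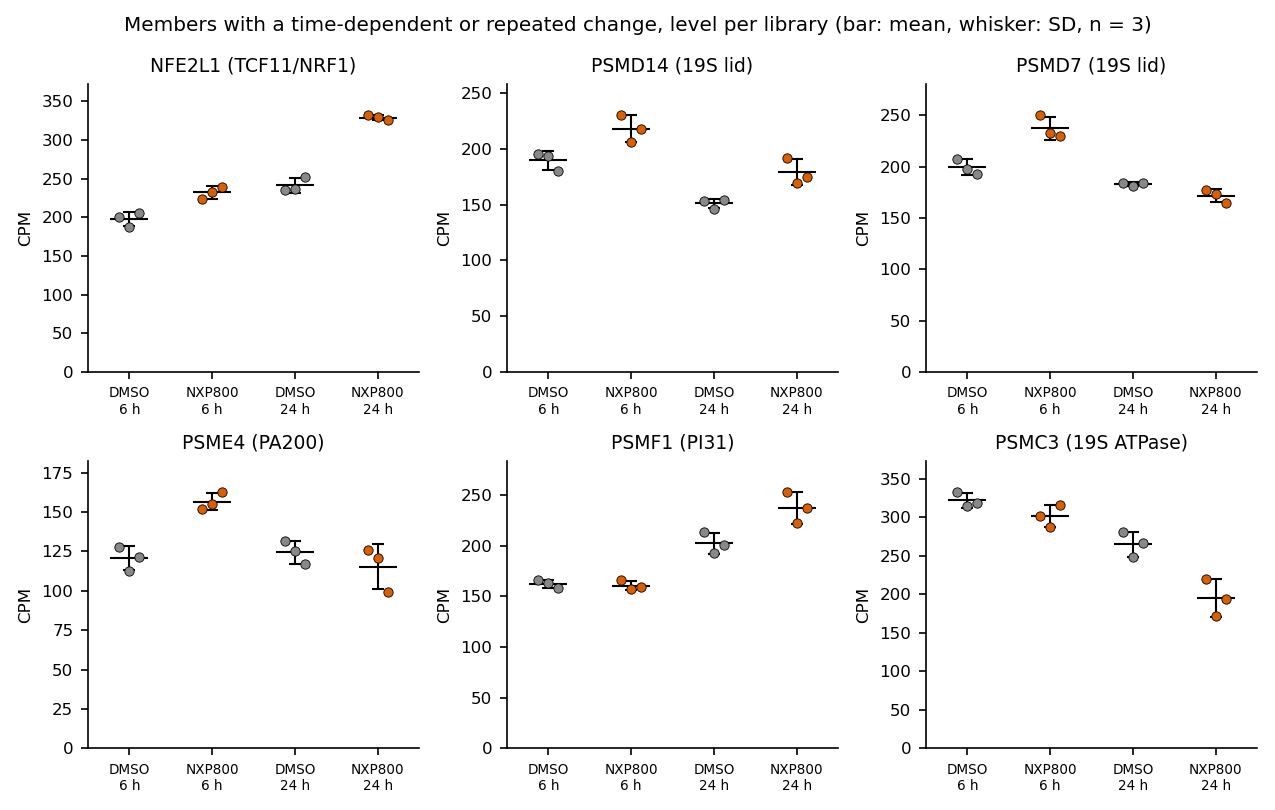
The y axis of each panel gives the CPM of a gene in each of 12 libraries, with mean and SD of 3 libraries per group. NFE2L1 and PSMD14 are higher with NXP800 at both times, PSMD7 and PSME4 at 6 h, PSMF1 at 24 h, and PSMC3 is lower at 24 h, at 172 to 220 CPM against 248 to 281 in DMSO.

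Across all members the test of the difference between the responses called PSMF1 upward and PSMC3, PSMD7 and PSME4 downward, 4 of 49, against 25.8% of all tested genes. Without NXP800 replicate 1 of 24 h the downward count was 10, and the members added were PSMB1, PSMB3, PSMC1, PSMD1, PSMD2, PSMD3 and PSMD13. For the other 45 members a difference between 6 h and 24 h was not shown with all libraries in the main model. PSMB8 was at 0.41 (adjusted p = 0.091). It passed without a filter on low counts (adjusted p = 0.0219) and without DMSO replicate 3 of 24 h (adjusted p = 0.0325). PAAF1 was at 0.36 (adjusted p = 0.0734). It passed with library size only (adjusted p = 0.0376) and without NXP800 replicate 1 of 24 h (adjusted p = 0.0446).

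The responses were also counted by promoter letters. Of the 13 tested members with the antioxidant response element core 1 rose and 6 fell at 6 h, and none rose and 6 fell at 24 h. Of the 30 tested members with a promoter but without it 3 rose and 11 fell at 6 h, and 4 rose and 14 fell at 24 h. Over all tested members 38.8 and 49.0% fell at these times, and over all tested genes 27.8 and 28.6%. Of the 6 with the interferon motif 5 fell at each time, namely PSMB4, PSMB10, PSMA4, PSME1 and PSME2, while the sixth, PSMG4, passed at neither. These counts are a description and were not tested.

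The other genes of the pathway were taken from 3 lists, to be read against the 25% of all tested genes that rose and 27.8% that fell at 6 h and the 27.5% and 28.6% at 24 h. Of 14 genes for NFE2L1 processing and partners 6 rose and 4 fell at 6 h (42.9 and 28.6%), and 7 rose and 4 fell at 24 h (50 and 28.6%). MAFF, a small MAF protein that pairs with NFE2L1 and NFE2L2, rose most, from 19.6, 18.7 and 21.4 CPM to 113, 112 and 86.7 at 6 h (2.39 ± 0.12, adjusted p = 2.45e-10) and from 18.3, 16.0 and 16.7 to 31.2, 38.9 and 28.9 at 24 h (0.96 ± 0.12, adjusted p = 4.31e-06). MAFG, MAFK, NFE2L2, DDI2 and NGLY1, singled out after their values were seen, rose at both times as well. MAFG rose by 0.98 and 0.73 and MAFK by 1.64 and 0.90. NFE2L2, the relative of NFE2L1 that answers oxidative stress, rose from 117, 110 and 106 CPM to 227, 213 and 195 at 6 h (0.93) and by 0.59 at 24 h. DDI2, the protease that cleaves NFE2L1, rose by 0.38 and 0.30. NGLY1, which deglycosylates NFE2L1, rose by 0.26 and 0.80, though its 6 h call was lost without DMSO replicates 1 or 3 or NXP800 replicates 2 or 3 of 6 h, or DMSO replicate 1 of 24 h (adjusted p = 0.0505 to 0.218).

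The segregase VCP, which extracts NFE2L1 from the membrane, fell at both times, from 529, 508 and 544 CPM to 408, 395 and 433 at 6 h (-0.36 ± 0.07, adjusted p = 0.0004) and by 0.37 at 24 h. NFE2L3, another relative of NFE2L1, was at -0.03 at 6 h (adjusted p = 0.837) and fell at 24 h, from 40.4, 53.7 and 55.2 CPM to 19.9, 23.9 and 25.1 (-1.11 ± 0.12, adjusted p = 6.63e-07). The libraries of this gene were apart at 24 h and overlapped at 6 h. NPLOC4 and UFD1, the cofactors of VCP, and BTRC, a subunit of a ubiquitin ligase, were also named after their values were seen. NPLOC4 fell by 0.30 and 0.27, though its 24 h call was lost with library size only or without NXP800 replicate 3 of 24 h (adjusted p = 0.0668 and 0.0549), and UFD1 fell by 0.26 and 0.41. BTRC turned, from -0.23 at 6 h (adjusted p = 0.00787) to 0.43 after 24 h (adjusted p = 4.29e-05).

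Of 16 proteasome-bound partners 6 rose and 4 fell at 6 h (37.5 and 25%), and 7 rose and 3 fell at 24 h (43.8 and 18.8%). ZFAND2A (AIRAP), an arsenite-inducible protein that binds the 19S particle, was at 8.27, 8.26 and 8.72 CPM against 16.6, 15.9 and 16.2 at 6 h (0.95 ± 0.09, adjusted p = 1.74e-07) and at 9.37, 9.58 and 9.20 against 21.0, 21.3 and 18.6 at 24 h (1.11 ± 0.08, adjusted p = 1.77e-08). AKIRIN2, which carries proteasomes into the nucleus, rose by 0.66 and 0.44, ECPAS, a scaffold of the 26S particle, by 0.41 and 0.33, and ZFAND5, an activator of the 26S particle, by 0.40 and 0.28; these were singled out after their values were seen. ADRM1, a ubiquitin receptor of the 19S particle, fell by 0.23 and 0.42, with 350, 318 and 320 CPM against 268, 222 and 249 at 24 h. Its 6 h call was lost without NXP800 replicate 2 (adjusted p = 0.0541). SEM1, a small 19S subunit, fell by 0.26 and 0.38, a 6 h call that was lost without DMSO replicate 2 (adjusted p = 0.0512), and UBE3C, a proteasome-bound ubiquitin ligase, fell by 0.19 and 0.25; these were also singled out afterwards. UBQLN2, a shuttle for ubiquitylated proteins, fell at 6 h (-0.35, adjusted p = 0.000702) and was at -0.05 at 24 h (adjusted p = 0.608).

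Of 17 genes of the interferon gamma axis and of MHC class I processing 3 rose and 5 fell at 6 h (17.6 and 29.4%), and 6 rose and 6 fell at 24 h (35.3% each). IRF1, the transcription factor that drives the immunoproteasome genes after interferon, rose from 21.3, 26.1 and 22.4 CPM to 31.6, 34.2 and 28.3 at 6 h (0.43 ± 0.09, adjusted p = 0.000946) and from 24.2, 22.5 and 21.3 to 38.6, 41.5 and 36.8 at 24 h (0.78 ± 0.09, adjusted p = 2.47e-06). B2M, the light chain of MHC class I, fell by 0.30 at 6 h and from 210, 212 and 225 to 139, 127 and 150 CPM at 24 h (-0.64 ± 0.09, adjusted p = 2.18e-05). Its 6 h call was lost without DMSO replicate 2 or NXP800 replicate 3 (adjusted p = 0.0887 and 0.056).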

How the data were processed

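RNA of MNNG/HOS cells was extracted after DMSO or NXP800 and made into strand-specific mRNA libraries, 3 per group. The authors trimmed reads with fastp 0.20.1, aligned them with STAR 2.7.5a to hg38 and counted them with HTSeq 0.12.4, and they deposited raw counts per gene symbol for each sample. The counting mode, its strand setting and the design given to DESeq2 in the study are not given in the sources used here. Rows without a gene name were not used (reads on no feature 2.73 to 8.14%, ambiguous 2.10 to 2.43%, aligned to several places 1.86 to 3.37%).

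The software was edgeR 4.0.16 and DESeq2 1.42.0 under R 4.3.3. After filterByExpr, which kept 15979 genes, and TMM scaling, all 12 libraries entered one model of 4 groups (common dispersion 0.007231, 8 residual degrees of freedom), tested by edgeR's quasi-likelihood method with Benjamini-Hochberg adjustment over all tested genes. Contrasts were NXP800 against DMSO at 6 h and at 24 h, and the difference of these responses. The procedure was also run on simulated counts with a common dispersion for all genes and no effect of replicate number, unlike these data. That run cannot show how well the procedure works here, and nothing is concluded from it. Depth was even, so precision follows replicate spread, and for low genes such as PSMB9 also counting error. The study describes its replicates in general as independent experiments, and the labels add nothing for these libraries, so p-values measure the spread between them.

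Replicate numbers did not enter the main model. Within each time they were taken to pair libraries for the paired counts and ratios. The replicate block gave a number the same effect at both times, and pairing across times was not examined. Deviations from the group mean, compared over genes, had r of 0.159 to 0.329 between a treated and a control library that share a number and at most 0.058 between others. The numbers in the sample titles are the only source of the pairing, and genes are not independent replicates. Alternatives were other scalings, filters, tests, the replicate block, libraries left out in turn and an adjusted p below 0.01. Added after seeing the data were library-size scaling and left-out libraries for the summed levels, and left-out libraries and a paired test for the ratios.

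The rule for members uses symbols only, but the rule and the lists were chosen with earlier results of these data known. Named genes are all members and, from each of 3 other lists, the called gene with the largest change each way at each time, plus TAP1 and TAP2 (10 genes); 13 further genes were named after their values were seen. A further list is not reported here. Positions and promoters are RefSeq's on GRCh38.p14, and exon overlaps come from GENCODE. No protein sequences were used here.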

Additional observations from a re-analysis of the deposited data

Results flagged for a closer look

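For 12 genes of the text, edgeR's test called the responses at the times different, against 25.8% of all 15979 tested genes. The 12 hold 4 of the 49 tested members. The others were named for the size of their change or, for MAFK, NFE2L2, NGLY1 and BTRC, after their values were seen, so they are a selected group. Among the members, the 24 h response minus the 6 h response was -0.345 on the log2 scale for PSMC3 (adjusted p = 0.0341), -0.3443 for PSMD7 (adjusted p = 0.00558), -0.4871 for PSME4 (adjusted p = 0.00571) and 0.2476 for PSMF1 (adjusted p = 0.0491). PSMD7 and PSME4 rose at 6 h and did not pass at 24 h, PSMC3 fell at 24 h and PSMF1 rose at 24 h. The differences for PSMC3 and PSMF1 did not pass in every alternative, and those for PSMD7 and PSME4 did at an adjusted p below 0.05.

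Among the partners of NFE2L1 the response shrank from 6 h to 24 h for MAFF (-1.427, adjusted p = 1.55e-05), MAFK (-0.7382, adjusted p = 0.00258) and NFE2L2 (-0.3398, adjusted p = 0.0299), all of which rose at both times. It was lower at 24 h for NFE2L3 (-1.084, adjusted p = 0.000143) and larger for NGLY1 (0.5306, adjusted p = 0.0167). BTRC fell at 6 h and rose at 24 h, a difference of 0.6586 (adjusted p = 0.000108). For TAP1 the difference was 0.7817 (adjusted p = 0.017) and for UBQLN2 0.3042 (adjusted p = 0.0367), and both fell at 6 h and did not pass at 24 h, except TAP1 without DMSO replicate 3 of 24 h (0.46, adjusted p = 0.0103). The difference for NFE2L2 was lost with library size only (adjusted p = 0.0749) and without DMSO replicate 2 or 3 or NXP800 replicate 1 or 2 of 6 h, or DMSO replicate 1 or NXP800 replicate 3 of 24 h (adjusted p = 0.0576 to 0.0882). That for NGLY1 was lost without DMSO replicate 2 of 6 h (adjusted p = 0.0503). That for UBQLN2 was lost without a filter (adjusted p = 0.101) and without DMSO replicate 2 or 3 or any NXP800 replicate of 6 h, or DMSO replicate 2 or NXP800 replicate 1 or 3 of 24 h (adjusted p = 0.0512 to 0.0955).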

How the results depend on the processing

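Of the called members 15 of 23 at 6 h, 23 of 28 at 24 h and 2 of 4 for the difference passed in every alternative run at an adjusted p below 0.05, and no called member changed direction in any. The replicate block lost no call. It added PSMB1 and PSMB6 at 6 h (adjusted p = 0.0308 and 0.0492) and PSMC5 and PSMD5 at 24 h (adjusted p = 0.0424 and 0.0471). For the difference it added PSMD1 downward (adjusted p = 0.031) and NFE2L1 upward (adjusted p = 0.0486). With PSMF1, 2 members thus had a higher response at 24 h by the block. It changed no other call of a member. Scaling by library size only moved the median of all genes at 24 h from -0.003 to 0.09 on the log2 scale and ended the 24 h calls of PSMA4, PSME1 and PSMG3 (adjusted p = 0.0672, 0.0811 and 0.0804). The cause of the changes below was not tested.

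Counts moved as follows. At an adjusted p below 0.01, 11 members fell at 6 h, 1 subunit of the 19S particle rose and 0 fell at 6 h, 1 gene of the interferon list fell at 6 h, 1 immunoproteasome subunit fell at 24 h, and 0 members had a higher response at 24 h. Members with a higher response at 24 h numbered 0 with DESeq2's size factors, 4 with library size only, and 2 with at least 10 counts in every library. Immunoproteasome subunits that fell at 6 h numbered 2 without a filter or with at least 10 counts in every library. With library size only 1 core subunit (PSMB7) rose and 3 genes of the interferon list fell at 24 h.

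Directions that turned belonged to values near 0. With library size only the 24 h values were 0.046 for PSMA3, 0.020 for PSMD2, 0.013 for PSMD4, 0.078 for PSMG1, 0.081 for PSME3 and 0.045 for UBQLN2, and the 6 h value was 0.0012 for PSMF1. With only the libraries of the time point the 19S median at 6 h was 0.0106, the 6 h values were 0.012 for PSMD8, 0.011 for PSMD13, 0.00041 for PSMG1, 0.017 for PSMF1 and 0.0032 for NFE2L3, and the 24 h values were 0.0085 for PSMG1 and 0.012 for PSME3. Without a filter the 24 h values were 0.0066 for PSMG1 and 0.0095 for PSME3. With DESeq2's size factors PSME3 was at 0.00072 at 24 h, and with its Wald test at 0.00010, with PSMF1 at 0.0011 at 6 h.

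With 1 library left out in turn, downward calls for the difference ranged from 2 to 10 (10 without NXP800 replicate 1 of 24 h) and upward ones from 0 to 1. Of the 19S subunits 1 to 4 fell and 1 to 3 rose at 6 h. Of the immunoproteasome 1 to 2 fell at 6 h (2 without DMSO replicate 3 or NXP800 replicate 2 of 6 h or DMSO replicate 3 of 24 h), and 1 to 2 fell and 0 to 1 rose at 24 h. The interferon list had 3 to 5 falls at 6 h (fewer without DMSO replicate 1 or 2 or NXP800 replicate 3). The 19S median at 6 h ranged from -0.0474 to 0.00879, and the immunoproteasome sum at 6 h from 72.5 to 82.4% of DMSO. Log2 values that turned ranged at 6 h from -0.109 to 0.028 for NFE2L3, -0.026 to 0.0088 for PSMD13, -0.047 to 0.011 for PSMD8, -0.039 to 0.015 for PSMF1 and -0.033 to 0.057 for PSMG4. At 24 h they ranged from -0.093 to 0.024 for PSMA3, -0.014 to 0.16 for PSMB7, -0.023 to 0.085 for PSMC4, -0.0074 to 0.12 for PSMD12, -0.14 to 0.010 for PSMD4, -0.032 to 0.073 for PSMD6, -0.0086 to 0.062 for PSMD9, -0.044 to 0.035 for PSME3, -0.039 to 0.044 for PSMG1, -0.0060 to 0.079 for PSMG2, -0.021 to 0.13 for PSMG4 and -0.091 to 0.013 for UBQLN2.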
